A study of Mus musculus with 15 samples.

Results

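Transcripts of 10 genes that mark or drive the passage between epithelial and mesenchymal states were followed in 4T1 cells treated with berry products. The genes were chosen by symbol from the count table of 40402 genes. They comprise 5 transcription factors of the epithelial-mesenchymal transition (EMT), namely Snai1, Snai2, Twist1, Zeb1 and Zeb2, the mesenchymal intermediate filament Vim, and 4 epithelial genes, Epcam, Esrp1, Esrp2 and Grhl2. Of the 10, 9 reached 1 count per 1000000 reads (CPM) in at least 1 library and Snai2 did not.

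4T1 is an established mouse mammary carcinoma line, used as a model of triple-negative breast cancer and labelled wild type. Cells were left untreated or were given blackberry extract (BLA), blueberry extract (BLU), or gold nanoparticles made with the blackberry (BLA-A) or blueberry (BLU-A) extract, and total RNA was sequenced. Neither a dose nor a treatment time is given in the sample labels, and no library of gold particles without extract was analysed here. The table holds 3 columns for each condition, with totals of 25611976 to 26957141 counts, but within each condition these columns agreed more closely than sampling noise allows (chi-square per degree of freedom 0.0951 to 0.475). They were averaged and counted as 1 library, so that each treatment is compared with untreated cells as 1 library against 1, with no test. Intervals given for single libraries are exact 95% Poisson intervals and cover counting error only. The labels give every column a separate batch date, so that batch and treatment cannot be told apart.

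In EMT, epithelial cells lose their junctions and gain motility. Snail (Snai1, Snai2), Twist and ZEB proteins carry out much of this by repressing epithelial genes such as Cdh1, and the Snail and ZEB zinc fingers bind a short DNA motif known as the E2-box. Grhl2 works in the opposite direction by maintaining the epithelial programme, while Esrp1 and Esrp2 direct epithelial patterns of splicing and Epcam is an epithelial surface adhesion molecule.

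The E2-box was searched for as CACCTG or its reverse complement CAGGTG in the 250 bases before the annotated starts of the members with an available promoter sequence (RefSeq, GRCm38.p6), which were Snai1, Twist1, Zeb2, Vim and Epcam. At least 1 box was present in 17.2% of all 32851 promoters and 2 or more in 2.06%. The Epcam promoter (chr17:87635729-87635978, plus strand) held 2, with first bases at -187 and -19 from the start, and that of Snai1 (chr2:167537945-167538194, plus strand) held 1, at -126. Twist1, Vim and each of the 4 starts of Zeb2 held none in this window. The promoters with a box are shown 5′ to 3′ with the boxes in capitals.
Epcam: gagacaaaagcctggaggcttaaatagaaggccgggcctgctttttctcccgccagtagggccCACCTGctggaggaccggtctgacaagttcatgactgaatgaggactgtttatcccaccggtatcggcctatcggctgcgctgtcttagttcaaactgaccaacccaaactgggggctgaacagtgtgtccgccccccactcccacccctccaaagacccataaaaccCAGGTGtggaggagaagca
Snai1: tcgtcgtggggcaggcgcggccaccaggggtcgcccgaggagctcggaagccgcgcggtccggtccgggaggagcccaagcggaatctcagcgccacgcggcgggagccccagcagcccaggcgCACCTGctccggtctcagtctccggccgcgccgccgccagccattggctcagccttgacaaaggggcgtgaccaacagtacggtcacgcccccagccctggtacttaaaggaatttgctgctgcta

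Untreated 4T1 cells carried transcripts of both states. Divided by the length of the union of exons (GENCODE, GRCm39), Vim stood at 825 CPM per kb, 101 times Zeb2 on that scale. Twist1 followed at 30.6 CPM per kb, Epcam at 26.6, Snai1 at 12.4, Zeb2 at 8.17, Grhl2 at 6.42, Esrp1 at 4.50 and Esrp2 at 2.05. Zeb1 was at 0.231 and Snai2 at 0.0648 CPM per kb of exon. Most of this order held across the 5 libraries. The exceptions among neighbours were Twist1 above Epcam and Epcam above Snai1, each in 4 of 5 libraries, and Snai1 above Zeb2 in 3 of 5.

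Reads were counted over whole genes, introns included, and the scale by gene span gave another order for some members. Per kb of span, Esrp2 stood above Esrp1 (1.58 against 0.641 CPM per kb), whereas per kb of exon Esrp1 was 2.19 times Esrp2. Zeb2 was 35.3 times Zeb1 per kb of exon and 80.9 times per kb of span. The classical cadherins were unequal in the same cells. Cdh1, the epithelial E-cadherin, was at 124 CPM in untreated cells and Cdh2, the neuronal-type N-cadherin gained in many EMT models, had a mean of 10.0 counts or 0.375 CPM.

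**Figure D1:**
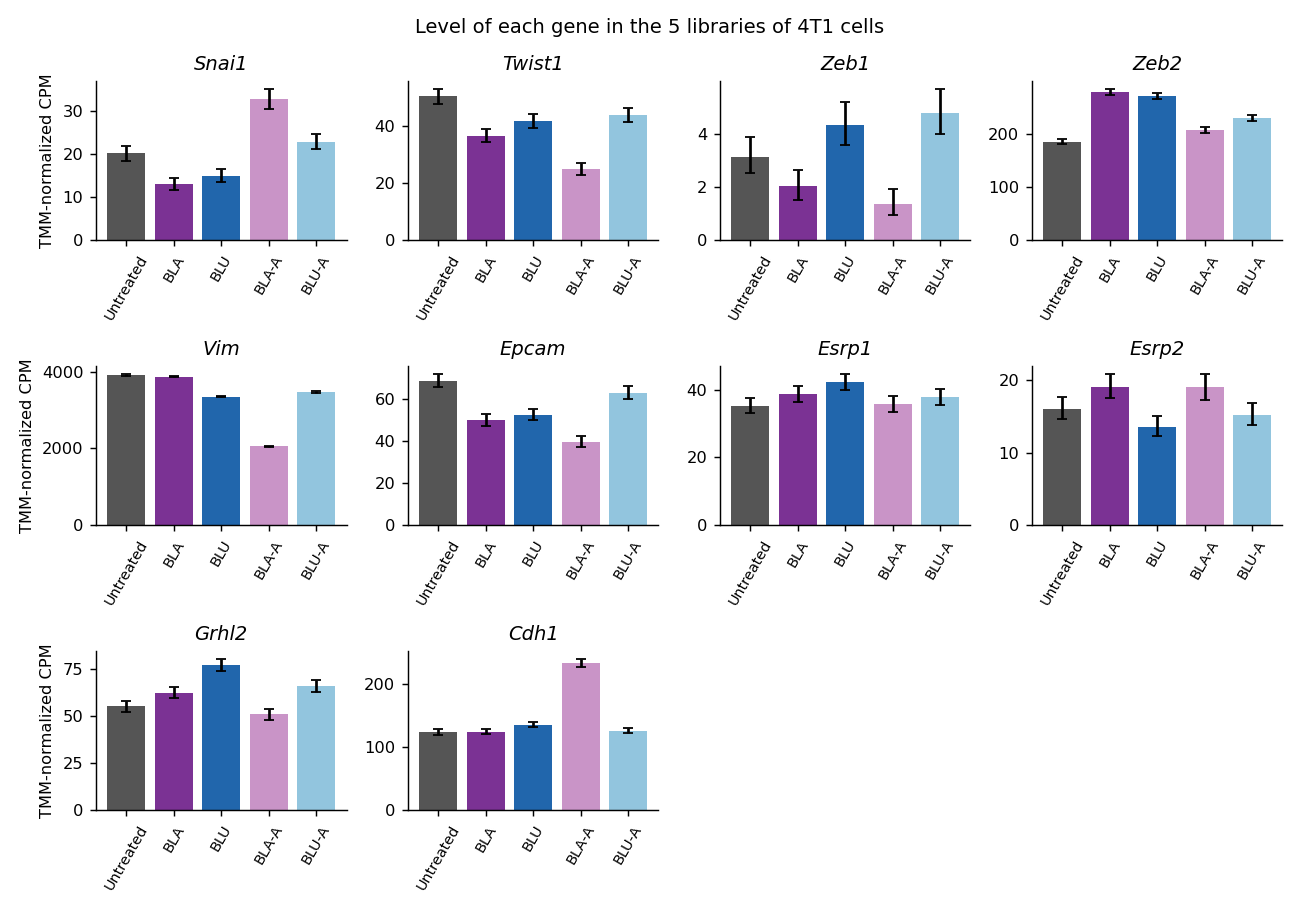
TMM-normalized CPM of 9 members and of Cdh1 in the 5 libraries (bars), each axis starting at 0, with exact 95% Poisson intervals (lines). Twist1, Vim, Zeb1, Epcam and Grhl2 were lowest and Snai1 and Cdh1 highest in the BLA-A library.

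Differences from untreated cells were mostly small. Of the 9 members above the filter, none had a log2 fold change beyond -1 or 1 with BLA, BLU or BLU-A, and 1, Twist1, did with BLA-A, downward. Over all 17594 genes kept, 16.4% were beyond that threshold with BLA, 10.3% with BLU, 20.9% with BLA-A (12.3% downward) and 7.87% with BLU-A. Fold changes compare CPM scaled by the trimmed mean of M-values (TMM), after adding 0.5. The scaling matters for BLA-A, where the median log2 fold change of all genes was -0.01 by TMM and -0.18 by total counts. Fewer genes averaged 10 counts or more in BLA-A (16106) than in the other libraries (17951 to 19504). Genes with any count numbered 24493 in BLA-A and 21311 to 25826 in the others. Values by total counts are given beside the BLA-A values of the members.

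Twist1, a basic helix-loop-helix factor (chr12:34007645-34009828, GRCm39, plus strand), was at 50.5 CPM in untreated cells, 36.6 with BLA, 41.8 with BLU, 25.0 with BLA-A and 44.0 with BLU-A. It was lower in all 4 treated libraries, and its BLA-A interval (23.0 to 27.1 CPM) lay clear of the other 4. The log2 fold change with BLA-A was -1.001, at the edge of the threshold, and -1.19 when libraries were scaled by total counts. Without the columns numbered 2 it was -0.99. With the other treatments it was -0.46 (BLA), -0.27 (BLU) and -0.20 (BLU-A). In bulk RNA, fewer cells with a transcript and less of it per cell cannot be told apart.

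Vim (chr2:13578738-13587639, plus strand) was also lowest with BLA-A, at a far higher level, with 3920 CPM in untreated cells, 3870 with BLA, 3351 with BLU, 2052 with BLA-A and 3471 with BLU-A. The BLA-A library was apart from the other 4, at a log2 fold change of -0.93 (-1.13 by total counts). BLA differed from untreated cells by -0.02 and BLU and BLU-A by -0.23 and -0.18.

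Snai1 (chr2:167380113-167384734, plus strand), the Snail repressor, went the other way. It was at 20.2 CPM in untreated cells, 13.1 with BLA, 15.0 with BLU, 32.9 with BLA-A and 22.9 with BLU-A. Both extracts were thus below untreated cells and both nanoparticles above, with log2 fold changes of -0.61 (BLA), -0.42 (BLU), 0.69 (BLA-A, 0.50 by total counts) and 0.18 (BLU-A). The interval of the BLU-A library (21.1 to 24.8 CPM) overlapped that of untreated cells (18.5 to 22.0 CPM), and the others did not. The counting interval of the BLU-A to untreated ratio was 0.01 to 0.35 in log2.

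Snai2, which encodes Slug, was nearly silent. It had a mean of 4.0 counts in the untreated library and 4.0 with BLU, and 0 in the BLA, BLA-A and BLU-A libraries, where 3 counts would be 0.110 to 0.129 CPM. Differences in Snai2 were not detectable at this depth.

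The ZEB paralogues differed in level and in pattern. Zeb2 (chr2:44873644-45007464, minus strand) was at 186 CPM in untreated cells, 279 with BLA, 271 with BLU, 207 with BLA-A and 231 with BLU-A. It was higher in all 4 treated libraries by TMM, most with the extracts (0.59 and 0.55), then BLU-A (0.31), while the BLA-A difference of 0.16 became -0.03 by total counts. Zeb1 was at 3.15, 2.03, 4.34, 1.37 and 4.80 CPM in the same order of libraries, which is 84.0, 55.3, 119.7, 31.7 and 127.3 counts. Both blackberry libraries were thus below untreated cells and both blueberry libraries above.

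Zeb1 is the tested member with the fewest reads, and its intervals are wide. The counting interval of its log2 ratio to untreated cells was -1.84 to -0.60 with BLA-A and -1.15 to -0.13 with BLA. With BLU it was 0.05 to 0.88, and with BLU-A 0.20 to 1.02. The point estimates were -0.97 (-1.11 by total counts), -0.53, 0.41 and 0.54. They include the offset of 0.5 CPM, which shrinks ratios of low levels, and the intervals do not.

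Epcam (chr17:87943407-87958557, plus strand) stood at 68.8 CPM in untreated cells, 50.0 with BLA, 52.7 with BLU, 39.7 with BLA-A and 63.0 with BLU-A, lower in all 4 treated libraries. Its log2 fold changes were -0.46, -0.38, -0.79 and -0.13, and -0.98 with BLA-A by total counts. Cdh1 did not share this pattern: at 124 CPM untreated it was 124 with BLA, 135 with BLU, 233 with BLA-A and 126 with BLU-A, a log2 fold change of 0.91 with BLA-A (0.72 by total counts).

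Grhl2 (chr15:37233280-37363813, plus strand) was at 55.3 CPM in untreated cells, 62.5 with BLA, 77.1 with BLU, 50.9 with BLA-A and 66.0 with BLU-A. BLU was the highest library, at a log2 fold change of 0.48. BLA-A was the lowest, at -0.12, or -0.31 by total counts. Ncald, on the opposite strand, shares 75 bases with Grhl2, and counting was by strand.

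The 2 splicing regulators had the smallest ratios between libraries of the 9 members. Esrp1 (chr4:11331933-11386875, minus strand) ran from 35.2 CPM in untreated cells through 35.7 with BLA-A, 37.7 with BLU-A and 38.6 with BLA to 42.2 with BLU, so that the highest library was 1.20 times the lowest. The sign of its BLA-A difference depended on the scaling, at 0.02 by TMM and -0.17 by total counts. Esrp2 (chr8:106853859-106864027, minus strand) was at 16.1 CPM untreated, 19.1 with BLA, 13.6 with BLU, 19.0 with BLA-A and 15.3 with BLU-A. Both blackberry libraries were above untreated cells and both blueberry ones below, by at most 0.24 in log2 size, with BLA-A at 0.05 by total counts. Esrp2 overlaps Nfatc3 on the opposite strand by 3317 bases, and Nfatc3 had a mean of 2667.0 to 4431.3 counts against 374.7 to 520.3 for Esrp2. The part of Nfatc3 reads in the Esrp2 values was not tested. At Vim, Gm54102 overlaps by 1081 bases on the opposite strand and had 4.0 to 9.7 counts.

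**Figure D2:**
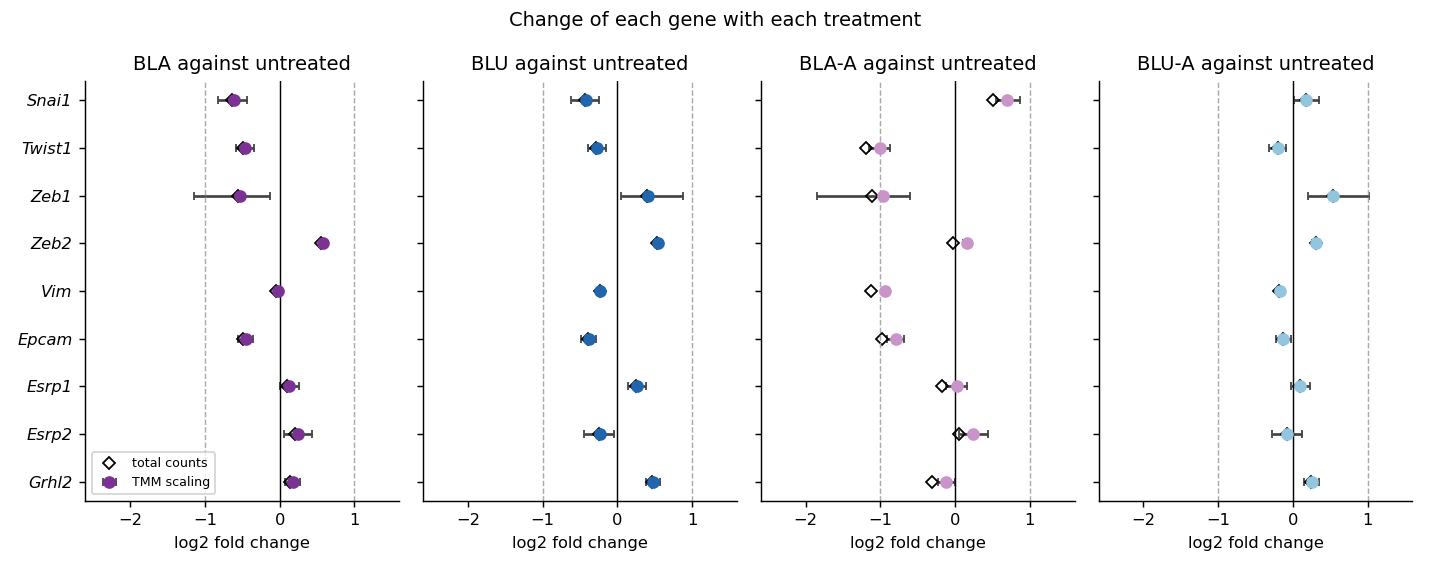
Log2 fold change against untreated cells (x axis) of 9 members (rows) with each treatment, by TMM scaling with 95% counting intervals (filled points, lines) and by total counts (open diamonds). Dashed lines mark -1 and 1. Twist1, Vim, Zeb1 and Epcam lie furthest left with BLA-A, at -1.001, -0.93, -0.97 and -0.79.

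Across the 5 libraries the ratio of the highest to the lowest level was 3.52 for Zeb1, 2.51 for Snai1, 2.02 for Twist1, 1.91 for Vim and 1.73 for Epcam. It was 1.51 for Grhl2, 1.40 for Esrp2 and 1.20 for Esrp1, with Zeb2 between Grhl2 and Esrp2. Put on the log2 scale with the offset of 0.5 CPM, this range was 1.30 for Snai1, 0.93 for Vim, 0.59 for Zeb2 and 0.26 for Esrp1, beside a median of 0.71 over the 9764 genes with a mean above 10 CPM.

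The 4 treated libraries were then compared as a group with the untreated one by edgeR's quasi-likelihood test, in which the spread comes from differences between treatments. None of the 9 members was called at an adjusted p of 0.05 (smallest adjusted p among them 0.9996, with adjustment over all genes tested), where 4 of 17594 genes or 0.0227% were. No member had an unadjusted p under 0.05 either, against 478 of all genes, and DESeq2's Wald test called 0 members and 19 genes in all (0.108%). Zeb2 had the smallest unadjusted p (edgeR, 0.163), with a log2 fold change of 0.41 ± 0.27 (SE) and higher levels in 4 of 4 treated libraries. Epcam was at -0.42 ± 0.30 and Twist1 at -0.45 ± 0.35, each lower in 4 of 4.

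Nanoparticles were also set against the extract of the same berry. With blackberry, 1 of 9 members was beyond the threshold of -1 or 1, against 24.5% of all genes, and with blueberry 0 of 9, against 6.68%. That member was Snai1, at 32.9 CPM with BLA-A and 13.1 with BLA (log2 fold change 1.30, counting interval 1.14 to 1.51). Snai1 was higher with the nanoparticle for blueberry too, at 22.9 against 15.0 CPM (0.60, interval 0.43 to 0.80).

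Zeb2 was lower with the nanoparticle than with the extract for both berries, by -0.43 and -0.23, as was Grhl2 by -0.29 and -0.22. Vim and Epcam differed in sign between the berries. Vim was at -0.92 for BLA-A against BLA and 0.05 for BLU-A against BLU, and Epcam at -0.33 and 0.26. Twist1 was at -0.54 (interval -0.70 to -0.40) and 0.07 (interval -0.05 to 0.19). For Esrp2 the differences were -0.0044 (interval -0.19 to 0.18) and 0.16 (interval -0.04 to 0.37), so that a difference was not detectable at this depth.

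**Figure D3:**
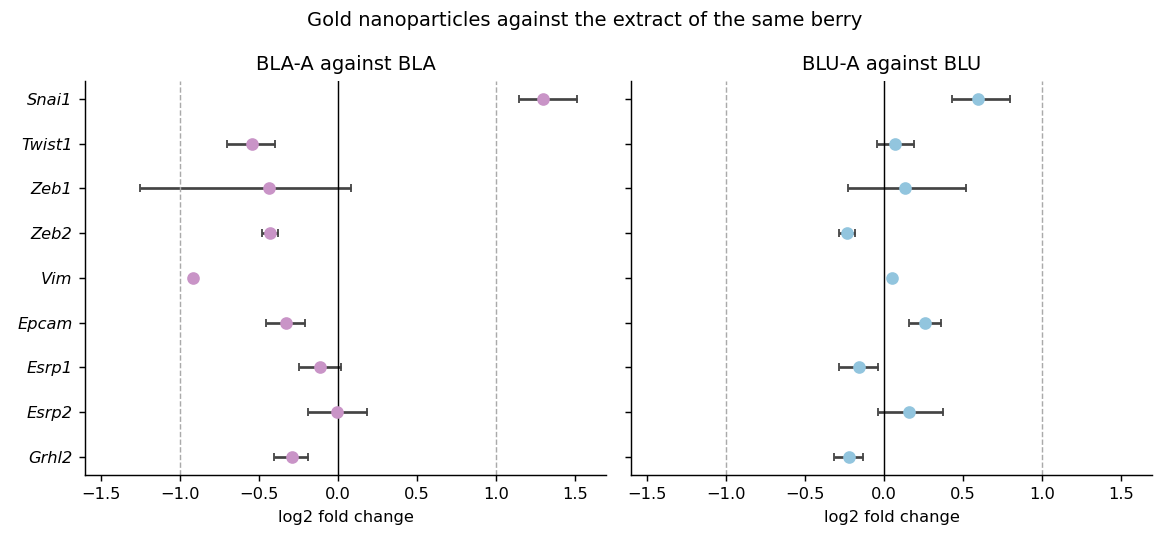
Log2 fold change of nanoparticle against extract (x axis) for blackberry (left) and blueberry (right), 9 members in rows, with 95% counting intervals. Snai1 lies to the right in both panels, at 1.30 and 0.60. Vim lies at -0.92 for blackberry and at 0.05 for blueberry.

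Several of the members' differences went with the genomic length of the gene. Among genes with a mean of at least 10 CPM and a known span, the median log2 fold change with BLA was -0.36 for 1536 genes under 10 kb and 0.44 for 1449 genes over 100 kb, and with BLU it was -0.27 and 0.40. Zeb2 (134 kb) lay within 0.15 of the long-gene median with BLA, 0.14 with BLU and 0.08 with BLU-A. Grhl2 (131 kb) lay 0.07 above it with BLU and 0.26 below it with BLA. Zeb1 (184 kb), which averages under 10 CPM, lay 0.97 below it with BLA and within 0.0048 of it with BLU. The short genes Snai1 (4.62 kb) and Twist1 (2.18 kb) were lower than the short-gene median by 0.25 and 0.10 with BLA. Vim (8.90 kb), also short, was 0.34 above it.

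Levels of the nuclear RNAs Malat1 and Neat1 differed as well. Malat1 was at 1616 CPM in untreated cells, 3708 with BLA and 3117 with BLU, 3088 with BLA-A and 2289 with BLU-A, and Neat1 at 193, 667, 475, 242 and 403. The part of gene length or nuclear RNA in the members' values was not tested. Among genes with a mean of at least 10 CPM, the length classes lay closer together with BLA-A, at 0.22 for short and 0.16 for long genes. This depended on the level cutoff. Over all genes kept with a known span, the BLA-A medians were 0.18 for 3591 short and -0.21 for 2638 long genes. Against the medians at 10 CPM or more, Twist1 and Vim were 1.22 and 1.15 below the short-gene median with BLA-A. Snai1 was 0.47 above it, and Epcam (15.2 kb) was 0.84 below the median of its class.

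**Figure D4:**
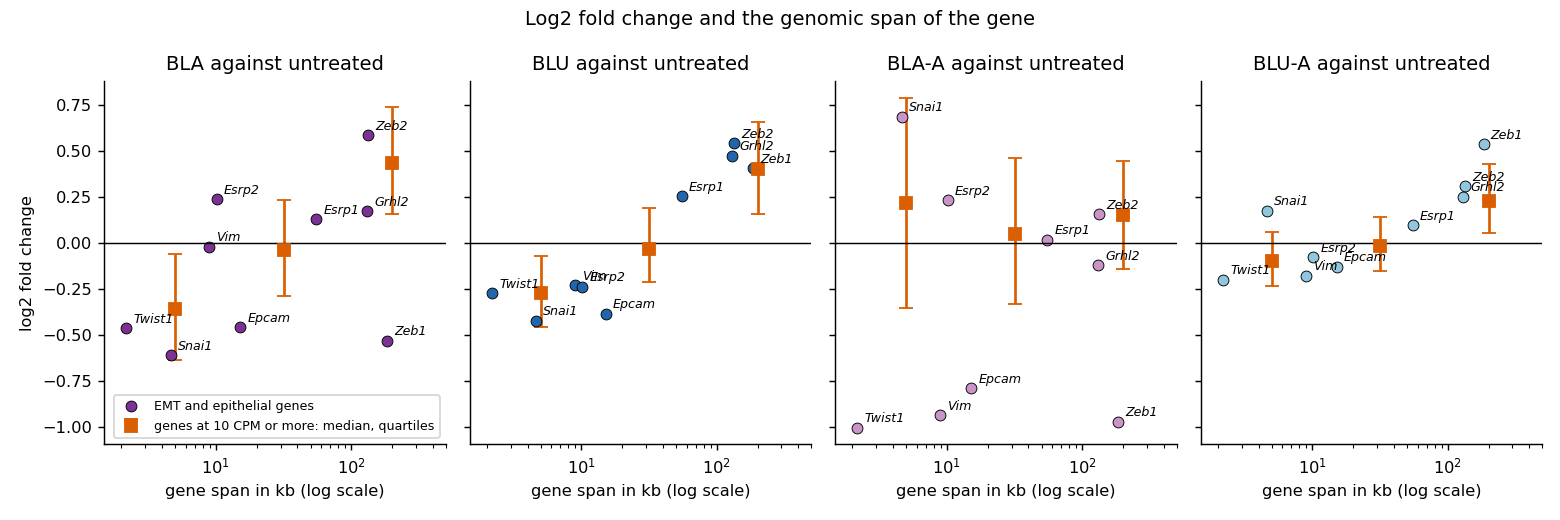
Log2 fold change against untreated cells (y axis) by gene span in kb (log x axis) for 9 members (circles), with the median and quartiles of genes with a mean of at least 10 CPM in 3 span classes (squares with lines, split at 10 and 100 kb and drawn inside each class). Medians run from -0.36 to 0.44 with BLA and from -0.27 to 0.40 with BLU, and Zeb2 lies within 0.15 of the long-gene median in each panel.

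Further genes of these programmes were examined in lists, with 93 genes above the filter in all. Beyond the threshold of -1 or 1 were 8 of 93 with BLA, 5 with BLU, 18 with BLA-A and 2 with BLU-A, which is 8.60%, 5.38%, 19.4% and 2.15%. Each share was below that over all genes given above. In the edgeR comparison of the 4 treated libraries with the untreated one, 0 of the 93 were called and 0 had an unadjusted p under 0.05.

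Epithelial junction and surface genes had the highest median with BLA-A, 0.69 over 26 genes, where all genes had -0.01. Of the 26, 22 were above 0, 5 were higher and 1 lower past the threshold (23.1% against 20.9% of all genes). By total counts the median was 0.50 while that of all genes was -0.18. Cldn4, a tight junction claudin, was at 17.0 CPM in untreated cells, 13.6 with BLA, 12.9 with BLU, 119 with BLA-A and 17.5 with BLU-A (2.77 with BLA-A). The BLA-A library alone stood high.

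Lsr, the lipolysis-stimulated receptor of tricellular junctions, was at 53.8, 51.1, 42.9, 177 and 51.9 CPM in the same order. Keratin Krt19 was at 11.5, 17.9, 11.4, 45.1 and 8.31 CPM and the membrane protease Prss8 at 7.80, 5.16, 9.07, 24.1 and 9.93. In each the BLA-A library was the highest, at 1.71, 1.93 and 1.57. Epcam, at -0.79, was thus on the other side of 0 from these genes. With BLA, BLU and BLU-A the list's medians were -0.07, -0.15 and -0.04.

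Mesenchymal genes did not form a contrast to this. Their median with BLA-A was 0.46 over 18 genes, of which 12 were above 0 and 6 below. Past the threshold 4 were higher and 3 lower (38.9% against 20.9% of all genes). The 3 lower genes were at most at 2.58 CPM in any library. By total counts the median was 0.27, with 3 higher and 3 lower. The gelatinase Mmp9 was at 200 CPM in untreated cells, 143 with BLA, 182 with BLU, 582 with BLA-A and 176 with BLU-A. The matrix proteins Sparc and Tnc were at 233 and 52.7 CPM with BLA-A against 94.1 and 24.2 untreated. Vim, at -0.93, went against these 3. With BLA the list's median was -0.41, with 1 higher and 3 lower (22.2% against 16.4% of all genes).

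The other EMT factors showed a split by treatment. Prrx1, a homeobox factor of mesenchyme, was at 21.4 CPM in untreated cells, 46.5 with BLA, 52.5 with BLU, 21.2 with BLA-A and 32.2 with BLU-A, past the threshold with both extracts (1.10 and 1.27). Tcf4, a basic helix-loop-helix factor, was at 452, 719, 722, 478 and 607 CPM and shares with Zeb2 and Prrx1 the higher extract libraries. Foxc2 was at 11.8 CPM with BLA against 19.9 untreated. The median of the 9 tested genes was -0.08, -0.06, 0.02 and 0.13 for BLA, BLU, BLA-A and BLU-A, and -0.12 for BLA-A by total counts.

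Of 12 other epithelial factors tested, Elf3, an ETS factor, was at 2.50 CPM in untreated cells, 1.95 with BLA, 3.74 with BLU, 15.0 with BLA-A and 2.83 with BLU-A (2.37 with BLA-A). Klf5, Klf4 and Gata3 were also highest with BLA-A, at 195, 39.9 and 235 CPM against 115, 26.1 and 173 untreated, below the threshold. The list's median with BLA-A was 0.42, or 0.23 by total counts. By TMM, 8 of the 12 were above 0 with BLA-A and 4 below. Past the threshold 1 was higher and 1 lower (16.7% against 20.9% of all genes).

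Of 14 splicing regulators and Esrp targets, none passed the threshold with any treatment by TMM, against 7.87% to 20.9% of all genes. Qki and Ptbp1, which direct alternative splicing, were at 490 and 461 CPM with BLA-A against 261 and 247 untreated (0.91 and 0.90). With BLA, Srsf1 was at 98.3 against 175 CPM (-0.83) and Mbnl2 at 518 against 306 (0.76).

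TGF-beta signalling is a classical inducer of Snai1 and the ZEB genes. Of 14 ligands, receptors and Smads tested, 2 were higher past the threshold with BLA-A (14.3% against 20.9% of all genes). By total counts 1 was, with Smad7 at 0.95. None passed the threshold with the other treatments. Tgfb1, a ligand, was at 76.4 CPM in untreated cells, 52.3 with BLA, 64.2 with BLU, 196 with BLA-A and 68.7 with BLU-A, and the inhibitory Smad7 at 54.9, 75.2, 74.1, 122 and 66.2. Tgfb1 was, as Snai1, below untreated cells with both extracts and highest with BLA-A, but unlike Snai1 it was below them with BLU-A. A link between Tgfb1 and Snai1 was not tested. Smad3 was at 417, 793, 664, 407 and 581 CPM and Tgfbr2 at 153, 197, 201, 259 and 177. The list's medians were 0.25, 0.34, 0.25 and 0.12 for BLA, BLU, BLA-A and BLU-A, and 0.06 for BLA-A by total counts.

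The 5 miR-200 family genes, whose products repress the ZEB transcripts, had 0 counts in every library, which allows up to 3 counts or 0.129 CPM each. Mature miRNAs are not measured by libraries of long RNA.

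**Figure D5:**
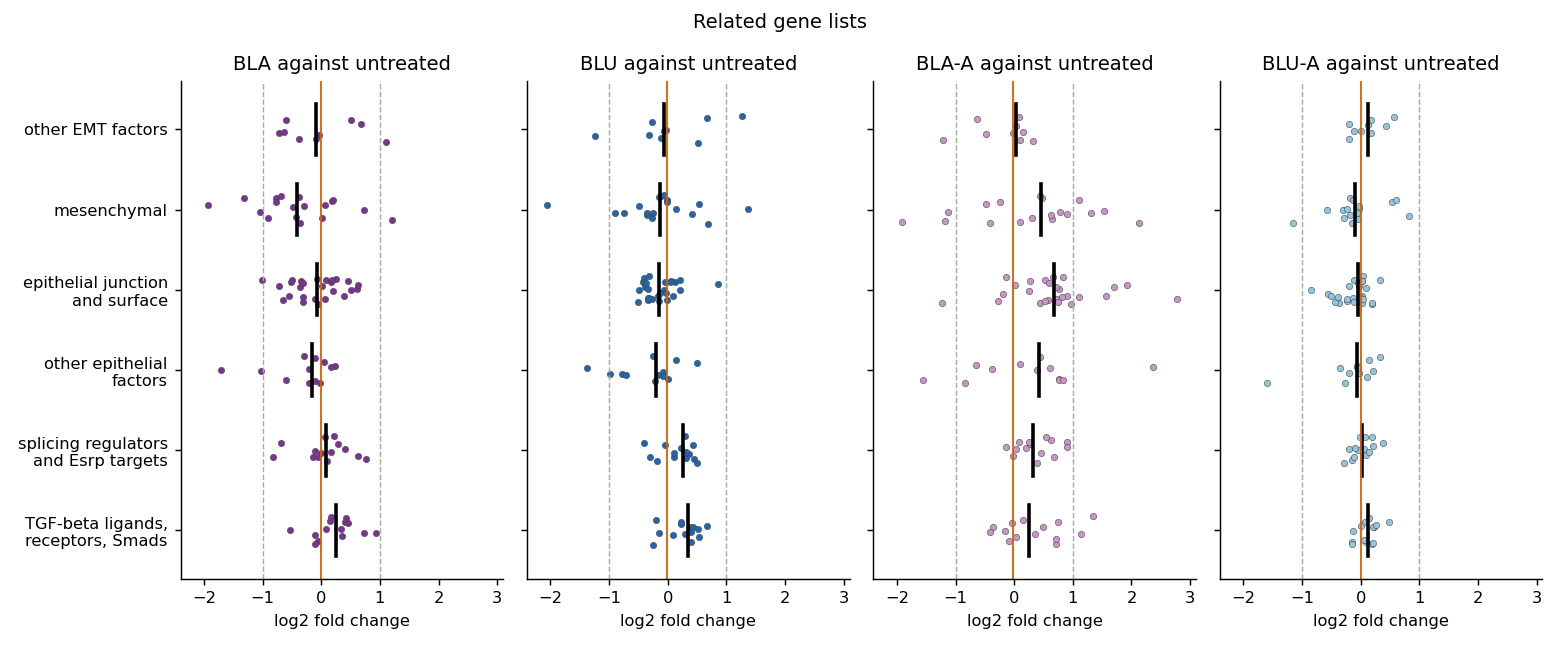
Log2 fold change against untreated cells (x axis) of the tested genes of 6 lists (rows, 1 point a gene), with list medians (black bars), the median of all genes (orange line) and the thresholds of -1 and 1 (dashed). The epithelial junction list lies to the right with BLA-A, at a median of 0.69, and near 0 with the other treatments.

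The cells carried the markers of an epithelial line. Of 8 epithelial markers, 6 were at 1 CPM or more in each library, among them Krt8 and Krt18, while the basal keratins Krt5 and Krt14 were at 0 and under 1 CPM. The summed epithelial level was 1069 CPM untreated, 832 with BLA, 866 with BLU, 1471 with BLA-A and 955 with BLU-A. Fibroblast markers summed to 87.2 to 104 CPM, nearly all from Pdgfra (86.0 to 102 CPM), with Lum at 0 and 1.21 to 2.10 CPM for the list without Pdgfra. Leukocyte markers summed to 1.27 to 4.69 CPM, endothelial to 2.93 to 7.04 and adipocyte to 0 to 0.666. Leukocyte and endothelial markers were lowest with BLA-A, and their part in the members' values was not tested.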

How the data were processed

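The authors deposited raw counts for 40402 genes in 15 columns. Per the paper's methods and the labels, ribosomal RNA was removed, and reads were aligned to GRCm39 and counted by strand over whole genes, introns included. Both read files of a library were merged and run as single reads, so that mates of a fragment may have been counted separately and counting intervals may be too narrow. Further deposited tables hold fold changes and p-values of the authors' own comparison and enrichment scores, which were not used.

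The members and gene lists were chosen with earlier results of these data known. Columns of 1 condition were compared over genes averaging 10 counts or more and, where the chi-square per degree of freedom stayed under 1.5, averaged as 1 library. Genes at 1 CPM or more in at least 1 library were kept (17594). TMM scaling and the quasi-likelihood test came from edgeR 4.0.16, with Benjamini-Hochberg adjustment, 4 treated libraries against 1 untreated and 3 residual degrees of freedom. The test was tried on simulated data. Counting intervals of ratios were exact, conditional on the sum of the pair and computed without the offset. They cover counting error only, since no molecular identifiers are stated.

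The text names every member, Cdh1 and Cdh2, and from each list up to 4 genes with the largest difference among those at 10 CPM or more in any library. Some genes the rule names are not reported here. Alternatives were total counts, DESeq2 1.42.0 size factors and Wald test, other filters and pseudocounts, leaving out columns or libraries, and the 15 columns as samples. Gene positions came from GENCODE on GRCm39 and promoters from RefSeq on GRCm38.p6. Gene spans were found for 93.0% of the genes kept. R 4.3.3, Python 3.11.15, numpy 2.4.6, pandas 2.3.3, scipy 1.17.1 and matplotlib 3.10.9 were used.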

Additional observations from a re-analysis of the deposited data

Results flagged for a closer look

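Vim and Epcam differed in sign between the berries when nanoparticles were set against extract, with counting intervals on opposite sides of 0. Vim was at a log2 fold change of -0.92 for BLA-A against BLA and 0.051 for BLU-A against BLU. Epcam was at -0.33 and 0.26. Each value rests on 1 library against 1, and the difference between the berries was not tested.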

How the results depend on the processing

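With 1 library a condition, no treatment has a replicate check. Members beyond a log2 fold change of -1 or 1 numbered 0 with BLA, BLU and BLU-A under each scaling, filter and pseudocount tried. With BLA-A the count of 1 (Twist1) was 3 by total counts and with 1 CPM required in every library, 2 with a pseudocount of 0.25, and 0 with DESeq2 size factors, without a filter, and with a pseudocount of 2. By total counts the 3 were Twist1 (-1.19), Vim (-1.13) and Zeb1 (-1.11), all downward, where the median of all genes was -0.18. For BLA-A against BLA the count of 1 was 2 by total counts. Shares of all genes under these settings are not given, so the counts cannot be set against them. Of the related lists, 1 gene with BLA, 1 with BLU and 0 with BLU-A were beyond the threshold when 1 CPM was required in every library. With a pseudocount of 2 these were 1, 2 and 0, and with BLU a pseudocount of 0.25 gave 8. By total counts Zeb2 and Esrp1 changed sign with BLA-A. Leaving out 1 of the 3 columns of each condition, the count of members was 1 for BLA-A against untreated cells and against BLA, and 0 for the other comparisons. Without replicate 2, however, the member beyond the threshold with BLA-A was Zeb1 (-1.07), and Twist1 was at -0.99. Leaving out a treated library left the edgeR count of members at 0.

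Same-numbered columns did not deviate together (mean correlation -0.0028 over 30 pairs). Whether the numbers pair the samples cannot be decided from this, because the scatter within each condition was no larger than counting error alone would give. Taken as 15 samples, which understates the spread, 6 of 9 members were called for treated against untreated cells, where 80.4% of all genes were. With adjusted p under 0.05 and the same threshold, 2 members with BLA-A and 0 with the other treatments were called. Of the 93 related genes, 10 were called with BLA, 11 with BLU, 24 with BLA-A and 4 with BLU-A, where the shares of all genes were 22.9%, 16.7%, 28.1% and 14.8%. Each of these counts and shares was the same with and without the replicate block.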
